A study of Mus musculus with 2 samples.

Results

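The replication-dependent histone genes encode the core histones H2A, H2B, H3 and H4 and the linker histone H1, and they are described here by the open chromatin at their promoters in the mouse urinary bladder. Members are the protein-coding genes of the GENCODE M21 annotation whose symbols start with Hist1h, Hist2h, Hist3h or Hist4h. The rule uses no measured value, though it was chosen with earlier results of these data known. The rule found 67 genes of 21938 protein-coding genes on chromosomes 1 to 19, X and Y: 6 for H1, 18 for H2A, 18 for H2B, 12 for H3 and 13 for H4. A promoter is the 500 bp to each side of a gene's outermost annotated 5' end. At 11 of the 67 genes the gene model begins at the start codon, so that end need not be the start of the transcript. Genes on opposite strands whose 5' ends point away from each other within 1000 bp were joined to 1 divergent promoter. The 67 genes then have 54 promoters of 21204 in all, 14 of them divergent pairs and 40 single.

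The data are DNase-seq of whole urinary bladder from 2 female B6CASTF1/J mice aged 36 days, with 1 library per animal. B6CASTF1/J is the first-generation hybrid of a C57BL/6 and a CAST parent. DNase I cuts DNA that is not wrapped tightly on nucleosomes, a peak is a stretch with many cuts, and a footprint is a short protected stretch inside such a region. The animals, numbered 5 and 6 in the labels, are called replicate 1 and replicate 2, and they form a single untreated group, so conditions could not be compared, and no test was run.

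Replication-dependent histone genes lie in clusters, have no introns in their coding sequence and are transcribed mainly in S phase, when new DNA needs new nucleosomes. Their transcripts end in a conserved stem-loop that binds the protein SLBP in place of a poly(A) tail. The cofactor NPAT gathers at the clusters in nuclear bodies, and each histone type has promoter elements of its own. The share of dividing cells in these bladders was not measured. In whole tissue, fewer cells with an open site and less cutting per cell cannot be told apart.

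Peak height, the measure used throughout, is the authors' signal for the peak, and the promoter value is that of the highest peak that touches the window by at least 1 bp. Its scaling is not given in the sources used here, so heights are read within an animal or side by side. The larger peak list of each animal held 117773 peaks in replicate 1 and 102671 in replicate 2, and the footprint lists held 280105 and 247833 entries. All heights were whole multiples of 0.00789 and 0.00849 within 0.05 of a step. The tissue label was checked on fixed markers. A promoter peak in both animals stood at 5 of 5 urothelial genes, 3 of 3 smooth muscle genes, 2 of 2 stromal genes and 1 of 2 endothelial genes. None stood at the leukocyte marker, the liver marker or the 2 germ cell markers.

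The sequences below carry the main patterns of the data. They were read from the GRCm38.p6 (mm10) reference of RefSeq, 5' to 3' on the strand of the gene. Sequences, element matches and copies in this report are those of the reference, and the CAST alleles of these hybrid animals were not examined. The first set shows the H4 element, a promoter element found upstream of H4 genes and bound by the zinc finger protein HINFP, with its core GGTCCG in capitals and 12 bases on either side. It is shown because nearly all H4 genes hold it and because the last 3 lines are the same 30 bases at promoters of very different height.
Hist1h4c, chr13:23698487-23698516, minus strand: agttttcaaccaGGTCCGcagaaggcctat
Hist1h4d, chr13:23581509-23581538, plus strand: ggttttcaaacaGGTCCGcattggtattat
Hist4h4, chr6:136804446-136804475, minus strand: tgttttcaatcaGGTCCGctcccaggaaat
Hist2h4, chr3:96263362-96263391, minus strand: agttttcaatctGGTCCGatcctctcatat
Hist1h4h, chr13:23531027-23531056, plus strand: agtcttcaatcaGGTCCGaaaacactgcat
Hist1h4i, chr13:22041391-22041420, minus strand: tgttttcactccGGTCCGcaagttccctat
Hist1h4m, chr13:21811687-21811716, plus strand: tgttttcactccGGTCCGcaagttccctat
Hist1h4n, chr13:21832226-21832255, minus strand: tgttttcactccGGTCCGcaagttccctat

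The second set gives the 120 bases before the annotated 5' end of a high H4 promoter, a low H4 promoter, and the highest H2A, H3 and H1 promoters. Capitals mark bases inside a footprint in both animals, so the lines can be compared for how much of the sequence was protected.
Hist1h4c, chr13:23698455-23698574, minus strand: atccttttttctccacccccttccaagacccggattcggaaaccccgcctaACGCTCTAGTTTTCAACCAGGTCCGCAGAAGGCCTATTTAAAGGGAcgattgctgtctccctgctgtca
Hist1h4n, chr13:21832197-21832316, minus strand: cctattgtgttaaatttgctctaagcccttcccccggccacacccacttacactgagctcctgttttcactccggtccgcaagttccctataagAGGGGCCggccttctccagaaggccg
Hist2h2aa2, chr3:96240277-96240396, minus strand: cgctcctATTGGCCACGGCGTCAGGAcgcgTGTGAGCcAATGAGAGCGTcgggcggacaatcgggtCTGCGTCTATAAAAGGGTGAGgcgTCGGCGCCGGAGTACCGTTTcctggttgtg
Hist1h3e, chr13:23562370-23562489, minus strand: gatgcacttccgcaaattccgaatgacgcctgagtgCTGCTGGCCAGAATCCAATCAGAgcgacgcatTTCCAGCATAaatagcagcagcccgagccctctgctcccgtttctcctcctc
Hist1h1c, chr13:23738688-23738807, plus strand: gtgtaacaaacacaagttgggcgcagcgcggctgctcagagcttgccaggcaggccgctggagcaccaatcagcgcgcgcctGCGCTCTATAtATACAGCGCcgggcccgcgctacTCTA
Of these 120 bases, 46 lay in a footprint in both animals at Hist1h4c, 78 at Hist2h2aa2, 33 at Hist1h3e, 23 at Hist1h1c and 7 at Hist1h4n. At Hist1h4c a single protected stretch runs from before the H4 element to past the TATA-like run TATTTAAA. At Hist1h4n no base of the element lay in a footprint in both animals, and its sequence has an identical copy, described below.

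The third set shows whole stretches between the 5' ends of divergent H2A/H2B pairs, on the plus strand, with footprints in both animals in capitals. The first pair was open, and the second had no peak in either animal.
Hist1h2bf/Hist1h2ad, chr13:23574197-23574380: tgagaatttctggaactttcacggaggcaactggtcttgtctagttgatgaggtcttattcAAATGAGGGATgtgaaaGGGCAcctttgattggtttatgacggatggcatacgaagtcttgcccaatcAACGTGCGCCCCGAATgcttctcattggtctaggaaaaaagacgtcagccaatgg
Hist1h2bq/Hist1h2ao, chr13:21810198-21810464: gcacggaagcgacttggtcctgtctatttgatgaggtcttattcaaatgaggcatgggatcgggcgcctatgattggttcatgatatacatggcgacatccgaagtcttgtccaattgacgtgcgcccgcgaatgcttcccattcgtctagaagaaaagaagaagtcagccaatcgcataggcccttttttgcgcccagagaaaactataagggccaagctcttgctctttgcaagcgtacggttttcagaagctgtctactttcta

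Most histone promoters were open in the bladder, but most held peaks below the median of all promoters. A promoter peak was found in both animals at 49 of 54 histone promoters (90.7%, exact 95% binomial interval 79.7% to 96.9%), against 58.4% of all protein-coding promoters (60.9% in replicate 1 and 59.9% in replicate 2). A footprint in both animals was found at 48 (88.9%), against 55.9% of all. The median height of the open histone promoters was 3.37 in replicate 1 and 2.61 in replicate 2 (2.99 ± 0.54, SD, n = 2), against 4.82 and 3.49 over all open promoters (4.15 ± 0.94). Only 15 of 49 in replicate 1 and 13 of 49 in replicate 2 exceeded the median of all promoters, and 8 in each animal exceeded the upper quartile of all, 8.71 and 5.50. The open promoters held a median of 5 and 6 footprints, against 6 and 6 over all promoters. The comparison with all promoters is a description, since genes are not replicates and many members share sequence. Over histone promoters whose members have no near copy elsewhere in the genome, described below, the median was not lower (4.73 ± 1.48, against 4.15 over all). The types are mixed otherwise there. Members without a copy were 6 of 6 H1, 2 of 18 H2A, 3 of 18 H2B, 1 of 12 H3 and 3 of 13 H4 genes. Whether the copies or this mix of types made the difference was not tested. In the list of bases by false discovery rate, 44 histone promoters (81.5%) held a base at 0.001 or lower in both animals, against 55.0% of all promoters.

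Histone H4, the most conserved of the core histones, had the highest promoters of the 5 types. All 13 H4 promoters were open in both animals, and the median of their heights was 9.46 and 5.95 in replicates 1 and 2 (7.71 ± 2.48). The 41 other histone promoters had medians of 3.07 and 2.25 (2.66 ± 0.59) over the 36 that were open. The ratio of the medians was 2.86 ± 0.30 (SD, n = 2). H4 genes held 7 of the 10 highest histone promoters, and these 10 were the same in both animals. Of the 8 histone promoters above the upper quartile of all promoters, 7 were H4 promoters in each animal.

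**Figure D1:**
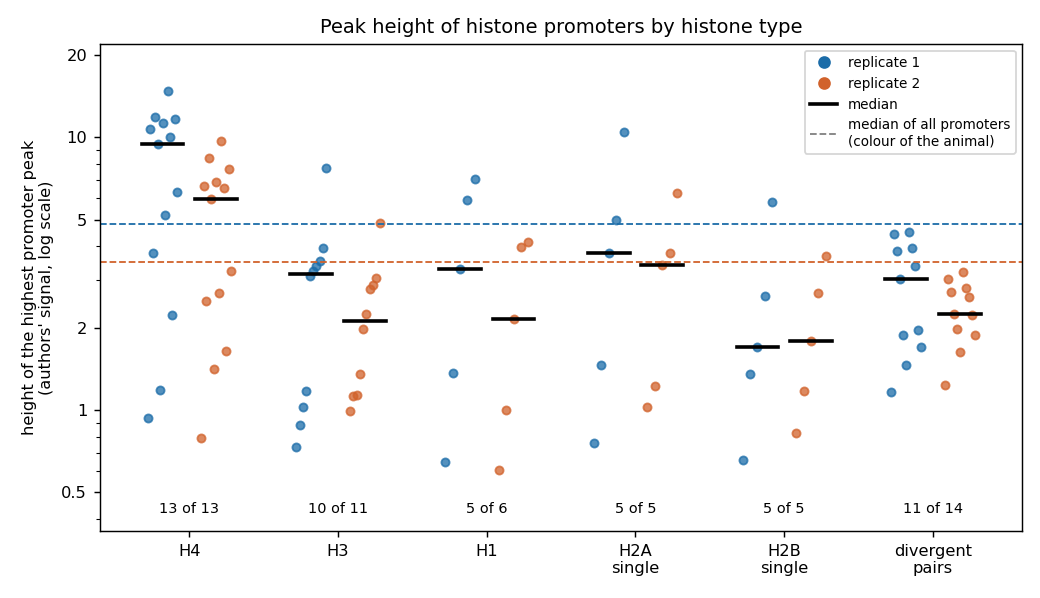
Height of the highest promoter peak (the authors' signal, log axis) for each histone promoter with a peak, by histone type, in replicate 1 (blue) and replicate 2 (orange); black bars are medians, dashed lines the medians of all open protein-coding promoters (4.82 and 3.49), and the counts give promoters with a peak in both animals. The H4 medians (9.46 and 5.95) lie above the dashed lines and the medians of the other types lie below them, while H4 promoters spread from 0.94 to 14.8 in replicate 1.

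Among the H4 promoters, Hist1h4c (ENSMUSG00000060678.5, 5' end at chr13:23698454) was the highest, at 14.8 in replicate 1 and 9.73 in replicate 2 (12.3 ± 3.57). It stood at percentiles 95.7 and 98.3 of all open promoters. Hist1h4d had 11.7 and 8.37 (10.05 ± 2.37), and Hist4h4, the only member on chromosome 6 and the only gene of the Hist4 group, had 11.3 and 7.64 (9.45 ± 2.57). These promoters exceeded every histone promoter of another type in both animals.
Hist1h4a followed with 11.9 and 6.89 (9.37 ± 3.51), Hist2h4 on chromosome 3 with 10.8 and 6.53 (8.65 ± 2.99), and Hist1h4i with 10.002 and 5.95 (7.98 ± 2.86). The low end of the type was Hist1h4n, with 0.94 and 0.79 (0.86 ± 0.11), and Hist1h4m, with 1.19 and 1.42 (1.31 ± 0.16). Hist1h4j had 2.23 and 1.66, so the type spanned a range of more than 10-fold in each animal although its members encode nearly the same protein.

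The linker histone genes, which encode the H1 proteins that bind DNA between nucleosomes, spanned a wide range of heights without a clear break. Hist1h1c had 7.07 and 4.14 (5.61 ± 2.07) and Hist1h1e had 5.88 and 3.97 (4.93 ± 1.35). Both encode H1 forms that are abundant in somatic cells. Hist1h1a had 3.29 and 2.17 (2.73 ± 0.80) and Hist1h1b had 1.37 and 1.00 (1.18 ± 0.26), and these forms are best known from dividing cells. Hist1h1t, the H1 gene of the testis, was the lowest of all open histone promoters, at 0.65 and 0.60 (0.63 ± 0.03). Its peak did not cover the 5' end but lay 307 and 391 bp from it, centred 476 and 483 bp downstream, so the start itself was without a peak.
Hist1h1d had no peak in its window. Its annotated 5' end lies 1828 bp before its start codon, and the nearest peak was 1442 bp away in both animals. With the window placed at the start codon, a choice made after seeing the data, Hist1h1d had 3.06 and 1.83 (2.44 ± 0.87), between Hist1h1b and Hist1h1a.

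The H3 genes, which encode the core histone with the best known modified tail, were lower than the H4 genes. Of 11 single H3 promoters 10 were open, with medians of 3.17 and 2.12 (2.64 ± 0.74). Hist1h3e led with 7.70 and 4.87 (6.28 ± 2.00). Hist1h3a had 1.03 and 0.99 (1.01 ± 0.02), and Hist1h3d had 0.73 and 1.13 (0.93 ± 0.28). The highest Hist1h3a peak was not the same in both animals, with its centre 41 bp downstream of the 5' end in replicate 1 and 335.5 bp downstream in replicate 2. Hist2h3c2 had 1.18 and 1.14 (1.16 ± 0.03), but the highest peak was not the same in both animals, with its centre at -26 bp from the 5' end in replicate 1 and at -531 bp in replicate 2 (negative values are upstream). Its copy Hist2h3c1 had none.

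Genes for H2A and H2B, which form a dimer in the nucleosome, mostly share divergent promoters, and no such pair was as high as the H4 median. Of the 14 pairs, 12 join an H2A with an H2B gene, 1 joins Hist1h2bh with Hist1h3f, and 1 joins Hist2h2ab with Bola1, which is not a histone gene. A peak in both animals was found at 11 of 14 pairs (78.6%), against 95.2% of all 734 divergent protein-coding pairs. Their median height was 3.04 and 2.25 (2.65 ± 0.56), against 8.42 and 5.27 for all open pairs, and the highest histone pair reached 4.4998 and 3.20. Single histone promoters had medians of 3.45 and 2.69 and were open in 38 of 40 cases (95%), against 57.1% of all single protein-coding promoters. The difference between histone pairs and singles was small beside the spread of either set, with a ratio of single to pair of 1.17 ± 0.04 (SD, n = 2). All 13 H4 promoters are single, so this ratio also holds the difference between H4 and the other types.

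The pair Hist2h2ac/Hist2h2be had 4.4998 and 3.20 (3.85 ± 0.92), and the pair Hist1h2bf/Hist1h2ad, printed above, had 4.42 and 3.02 (3.72 ± 0.99). Hist1h2ac/Hist1h2bc had 3.04 and 2.25 (2.65 ± 0.56). Hist2h2be and Hist1h2bc are known to give polyadenylated transcripts. The pairs were lower than the single H2A promoter Hist2h2aa2, which had 10.5 and 6.26 (8.38 ± 2.998) and was the only promoter outside the H4 type among the 8 highest.
Its neighbour Hist2h2aa1, which matches it at 99.8% over the 500 bp after the Hist2h2aa1 start, had 4.97 and 3.76 (4.36 ± 0.85). The highest Hist2h2aa1 peak was centred at -216.5 and -276.5 bp, while that of Hist2h2aa2 covered its start in both animals. Each gene is a near copy of the other on both sides of the start, so both heights may depend on read placement, described below. On chromosome 11, Hist3h2a had 3.76 and 3.40 (3.58 ± 0.25) and Hist3h2ba had 0.66 and 0.82 (0.74 ± 0.12). The Hist3h2a peak was centred 356 bp downstream of the 5' end in both animals. Hist3h2bb-ps, a pseudogene, is not a member. Single H2B promoters were all open and had medians of 1.71 and 1.80, and single H2A promoters had 3.76 and 3.40. The annotated 5' end of Hist1h2be lies 35168 bp before its start codon. Its height was 2.62 and 1.80 in the window of the 5' end and 2.30 and 2.06 in that of the start codon. In the window of the 5' end the highest peak was not the same in both animals. Its centre lay at -596.5 bp in replicate 1 and at 193.5 bp in replicate 2.

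Between the 5' ends of a pair, which lie a median of 260 bp apart, peaks covered a median of 72.9% of the bases in replicate 1 and 100% in replicate 2 over the 11 open pairs. The peaks did not always reach the starts. In 3 open pairs both 5' ends were covered by a peak in both animals, in 6 pairs 1 of them was, and in 2 pairs none was. By gene, a peak covered the 5' end in both animals at 12 of 13 open H4 genes, 9 of 11 H3, 4 of 5 H1, 10 of 15 H2A and 7 of 15 H2B genes. Over all members this came to 42 of 59 open genes (71.2%), against 68.1% of all open protein-coding genes.

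Footprints at H4 promoters were frequent over a stretch before the start, with 46.2% of genes covered at -90 bp, 61.5% at -50 bp and 38.5% at -30 bp. The most often protected position lay at -61 bp from the 5' end and was covered in 73.1% of the 13 H4 genes, as the mean of both animals. For H3 the highest value was 55.0% at -66 bp over 10 genes, and for H1 it was 70.0% at -37 bp over 5 genes. In paired H2A and H2B genes no position exceeded 28.6% (21 genes), close to the 27.4% over 11682 single promoters of all genes. A maximum over few genes is larger than one over many, so the H4, H3 and H1 values are descriptions of these genes only. Ranked by the smaller count of the 2 animals, the most footprints lay at Hist3h2a, with 13 and 12, at Hist2h4, with 10 and 8, and at Hist1h4h and Hist1h4a, with 8 and 8 each. Single counts could be higher, as at Hist2h2ac/Hist2h2be with 7 and 14.

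Short elements known from histone promoters were searched in the 200 bp before each 5' end on both strands, and the TATA box, spelled TATAAA, in the 100 bp before it on the strand of the gene. The H4 element core GGTCCG was present at 12 of 13 H4 genes (92.3%), against 6.56% of all protein-coding genes, and at 2 of the 54 other members. All 12 were on the strand of the gene, at -80 to -11 bp from the 5' end. These distances depend on the annotation, and the model of Hist1h4k, with the match at -80 bp, begins at the start codon. A match counted as protected if it lay wholly inside a footprint extended by 5 bp on each side. Of these 12 matches, 10 were protected in both animals (83.3%). Over all open genes 281 of 1359 such matches were (20.7%). The 10 protected matches were also the 10 that lay wholly inside a peak in both animals, against 27.4% protected among such matches over all genes.
The exceptions were Hist1h4m and Hist1h4n, whose 30 printed bases are the same as those of Hist1h4i. At Hist1h4i the element was protected and the height was 10.002 and 5.95, while at Hist1h4m and Hist1h4n it lay in no listed footprint. There it straddled the edge of the peak in both animals, with 4 of the 6 core bases inside the peak at Hist1h4m and 3 at Hist1h4n. The 500 bp before these 2 starts are identical to each other. Lack of protection and lack of placed reads thus cannot be told apart there. Hist1h4a, among the highest promoters, has no match in this window. High promoters without these letters and low promoters with them were thus both present within the type.

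**Figure D2:**
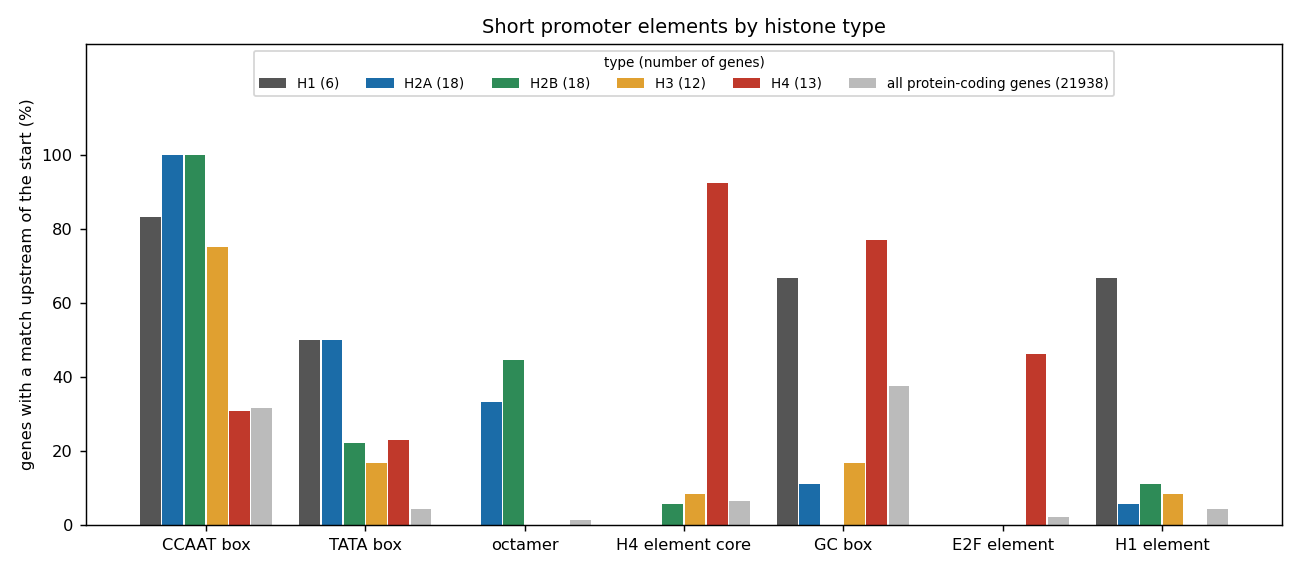
Share of genes with a match to 7 short elements upstream of the annotated 5' end, by histone type and over all 21938 protein-coding genes; bars start at 0 and the legend gives the number of genes. The H4 element marks 92.3% of the H4 genes, the CCAAT box all H2A and H2B genes, the octamer only H2A and H2B genes, and the H1 element 66.7% of the H1 genes.

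Other elements followed the histone type as well. The CCAAT box, CCAAT, bound by NF-Y, stood at all 18 H2A and all 18 H2B genes, at 54 of 67 members (80.6%) and at 31.7% of all genes. Pairs share these matches, since the same stretch lies upstream of both genes. The octamer ATTTGCAT, bound by OCT1, stood at 8 of 18 H2B and 6 of 18 H2A genes and at no other member, which came to 20.9% of members against 1.22% of all genes. None of its 12 matches at open genes lay wholly inside an extended footprint in either animal. Of the 12, 2 lay wholly inside a peak in both animals. Over all genes, 2 of 164 matches (1.22%) lay wholly inside an extended footprint in both animals.
The H1 element AAACACA stood at 4 of 6 H1 genes, at -117 to -113 bp, against 4.33% of all genes. TATAAA stood at 21 of 67 members (31.3%), against 4.39% of all genes. Of its 19 matches at open members, 8 (42.1%) lay wholly inside an extended footprint in both animals, against 63 of 228 over all genes (27.6%). For CCAAT the order was the reverse, with 17 of 124 matches at open members (13.7%) and 26.0% over all genes. This did not hold for every type. Protected in both animals were 0 of 7 matches at H1, 6 of 44 at H2A, 3 of 46 at H2B, 7 of 22 (31.8%) at H3 and 1 of 5 at H4 genes. With sites shared by a pair counted once, 14 of 94 (14.9%) were. The GC box GGGCGG, bound by Sp1, stood at 10 of 13 H4 genes and 18 of 67 members (26.9%), against 37.5% of all genes. The E2F-type element GGCGGGAA stood at 6 of 13 H4 genes and at no other type, against 2.17% of all genes. The 200 bp upstream held a median of 45.0% G and C in members and 55.0% over all genes. A match says only that these letters occur in the window.

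After the stop codon, the stem-loop that ends histone messages was found by its paired pattern within 150 bp at 65 of 67 members, a median of 31 bp after the stop codon. It is printed here because its letters divide the types, with the counts of genes that hold each form. The 41 genes with the commonest form were H1, H2A, H2B and H3 genes, and all 13 H4 genes had other letters in the stem.
Commonest form, 41 genes, no H4: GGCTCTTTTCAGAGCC
Second form, 9 genes, no H4: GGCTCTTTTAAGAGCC
Commonest H4 form, 8 genes, all H4: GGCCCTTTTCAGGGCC
Further H4 form, 2 genes: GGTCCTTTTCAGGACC
The members without the pattern were Hist2h2be and Hist1h2an, both with an open promoter. The 65 members with it had an open promoter in 57 cases.

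The 67 genes lie in 6 clusters when neighbours up to 200 kb apart are joined, and the height of a promoter varied with its place. On chromosome 3 the 10 Hist2 genes have 9 promoters, 8 of them open, with medians of 4.73 and 3.44 (4.09 ± 0.91). Chromosome 6 holds Hist4h4 alone, and chromosome 11 holds Hist3h2a and Hist3h2ba. On chromosome 13 the Hist1 genes form 3 blocks. Block A (5' ends from 21716143 to 21833743) has 18 genes and 13 promoters, block B (22035568 to 22043214) has 5 genes and 3 promoters, and block C (23531050 to 23934462) has 31 genes and 26 promoters.

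Promoters in block A were the lowest. Its 11 open promoters had medians of 1.37 and 1.42 (1.39 ± 0.04), compared with 3.45 and 2.69 (3.07 ± 0.54) for the 24 open promoters of block C and 3.83 and 2.71 for the 3 of block B. The ratio of the chromosome 3 medians to those of block C was 1.33 ± 0.07. The 4 H4 promoters of block A had medians of 1.71 and 1.54, and the 9 H4 promoters elsewhere had 10.8 and 6.62 (8.69 ± 2.92). The sets overlapped, since Hist1h4k in block A had 5.19 and 2.51 and Hist1h4f in block C had 3.77 and 2.70. Other types were lower in block A too, at 1.37 and 1.36 against 3.29 and 2.61 elsewhere. Block A also holds the identical copies described below, and their part in these heights was not tested.

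**Figure D3:**
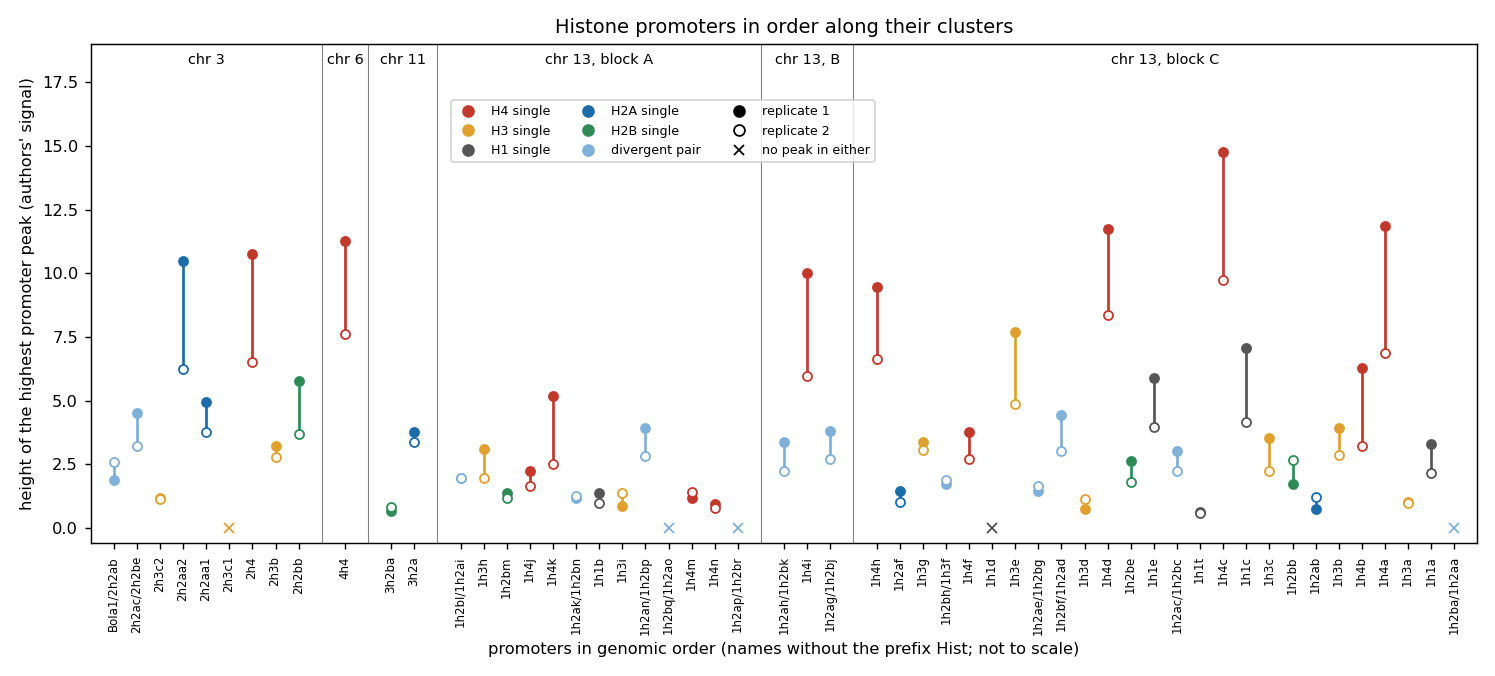
Height of the highest promoter peak (the authors' signal, linear axis) for each of the 54 histone promoters in genomic order, with replicate 1 as filled and replicate 2 as open circles, colours for the histone type, crosses for promoters without a peak in either animal and vertical lines between clusters. H4 promoters (red) stand out on chromosomes 3, 6 and 13 outside block A, and the H4 promoters of block A stay between 0.94 and 5.19 in replicate 1.

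Promoters without a peak were the same in both animals: Hist2h3c1, Hist1h1d, Hist1h2bq/Hist1h2ao, Hist1h2ap/Hist1h2br and Hist1h2ba/Hist1h2aa, with 8 genes in all. No histone promoter had a peak in 1 animal only. That was rare over all 21204 protein-coding promoters too, with 526 in replicate 1 only and 329 in replicate 2 only. None of the 5 histone windows without a peak held a base in the false discovery rate lists, which reach 0.05, or a footprint. Hist1h2ba and Hist1h2aa encode the H2B and H2A forms of the testis. The nearest peak to their starts was 4.3 to 4.7 kb away, and they have no copy of 95% identity elsewhere. This pair was thus without a peak in its window, as were the germ cell markers. Hist1h1t, also known for the testis, had a peak in its window but not over its start. That was so in at least 1 animal at 17 of 59 open members, against 4179 of 13080 open protein-coding genes.
The 2 closed pairs of block A, Hist1h2bq/Hist1h2ao and Hist1h2ap/Hist1h2br, are copies of each other with 100% identity over 500 bp on both sides of each start. The window of Hist2h3c1 matches that of Hist2h3c2 at 99.8% before and 100% after the start. A read from an identical stretch fits both places equally well, and how the authors placed such reads is not given in the sources used here. Whether these 3 promoters lack open chromatin or lack placed reads cannot be told apart.

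Copies were common in the family. A match of at least 95% identity over at least 100 bp elsewhere in the genome was found for the 500 bp before the start in 32 of 67 members and for the 500 bp after it in 49, and 15 members had none on either side. H1 genes had none. Among H4 genes 4 had a copy before the start and 10 after it. Hist1h4m and Hist1h4n, the lowest H4 promoters, are identical over the 500 bp before their starts. The low heights and the lack of a footprint over the H4 element there thus carry the same uncertainty. The 13 promoters without any member that has a copy were open in 84.6% of cases. The open ones had a median height of 4.73 averaged over the animals, against 4.15 over all open protein-coding promoters. The ratio of H4 to other medians among the 13 was 3.50. The 15 members without a copy hold all 6 H1 genes but 1 of 12 H3 genes, so their mix of types is not that of the family.

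The animals gave nearly the same order of promoters, and the height differed by a general shift. Over all promoters open in both animals the median log2 ratio of replicate 2 to replicate 1 was -0.53, and over the 49 histone promoters it was -0.48. Of these, 11 (22.4%) were higher in replicate 2, against 11% of all promoters. The shift grew with height over all promoters, from a median of -0.16 below a mean height of 1 to -0.83 from 10 upward, and the histone promoters below 1 had 0.33 (5 promoters) and those from 1 to 2 had -0.02 (12 promoters).
After the median of all promoters was subtracted, Hist1h2ab (0.76 and 1.23 in height, log2 difference 1.23), Hist1h2bb (1.71 and 2.68, 1.18), Hist1h3d (0.73 and 1.13, 1.15) and Hist1h3i (0.88 and 1.36, 1.15) were more than 2-fold higher in replicate 2. This was 4 of 49 promoters (8.16%), against 1.67% of all. These promoters are low, and low promoters had a smaller shift. Against the median of all promoters of like height, a comparison added after seeing the data, 1 of the 4 remained more than 2-fold higher, Hist1h2bb at 1.09, against 0.541% of all. Hist1h3i then had 0.90, Hist1h2ab 0.87 and Hist1h3d 0.79. At Hist1h2ab the highest peak spanned 34 bp in replicate 1 and 260 bp in replicate 2, so the called width differed as well. The highest Hist1h2bb peak lay away from the start, centred at -323.5 and -303.5 bp. In replicate 1 the nearest peak to the Hist1h2bb 5' end was 194 bp away, and the promoter held 0 and 6 footprints. In the other direction Hist1h4k had -0.52, Hist1h4b -0.43 and Hist1h4a -0.25, and no histone promoter was more than 2-fold higher in replicate 1, against 0.0969% of all.

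Genes for histones made outside S phase had, where open, a higher median height than all promoters. Of 20 listed replication-independent histone genes 18 were found in the annotation, and 9 of these (50%, exact 95% interval 26.0% to 74.0%) had a promoter peak in both animals, against 58.4% of all promoters. The open ones had medians of 8.76 and 5.30 (7.03 ± 2.45), against 4.82 and 3.49 over all promoters. H3f3a, which encodes the replacement histone H3.3, had 8.76 and 5.30. H2afz, the gene of the variant H2A.Z, had 12.8 and 7.61, and H2afx, the gene of the variant phosphorylated at DNA breaks, had 12.5 and 6.69. H1f0, a linker histone gene of resting cells, had 8.57 and 5.17. H3f3b, the second gene for H3.3, lacked a peak at the 5' end used here. With any annotated transcript start as the window, the share was 61.1%, against 64.1% of all promoters. The list holds germ cell forms such as H1foo and H1fnt, and neither had a peak in both animals.

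Regulators of histone genes were mostly open. Of 35 listed genes for transcription, 3' end processing, chaperones and S phase 32 were found, and 28 (87.5%) had a promoter peak in both animals, against 58.4% of all promoters. Their medians were 9.84 and 5.69 (7.77 ± 2.93), against 4.82 and 3.49. Npat, which shares a divergent promoter with the DNA damage kinase gene Atm, had 15.9 and 8.09. Casp8ap2, which encodes the histone body protein FLASH, had 15.7 and 9.81, and Hinfp, the gene of the protein that binds the H4 element, had 12.98 and 6.97. Slbp, for the stem-loop binding protein, had 9.82 and 7.11, and Lsm11, for a U7 snRNP protein that acts in 3' end cutting, had 10.3 and 8.01. With any annotated transcript start, all 32 were open (100%), against 64.1% of all promoters. The medians of this list were close to those of the H4 genes and above those of the other histone types.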

How the data were processed

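DNase-seq of urinary bladder was analysed in 2 animals that form 1 group. For each animal the authors deposited 2 peak lists, a footprint list and a list of bases with a false discovery rate, on mm10 per the labels. The aligner, the caller, its thresholds and the treatment of reads with several placements were not given in the sources used here. Peak height is a signal computed by the authors. Of the p-value kind, the authors deposited a false discovery rate per stretch of bases (up to 0.05) and a constant 0.01 in the footprint list. The deposited description of each sample holds no measurement and was not used.

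The longer peak list was the main list. Genes came from GENCODE M21 and sequence from the RefSeq assembly GRCm38.p6, and none of 748382 peaks and footprints ended beyond a chromosome. Promoters, pairs, clusters and heights were computed with Python 3.11.15, numpy 2.4.6, scipy 1.17.1 and pysam 0.24.0, checked on simulated peaks, and copies were sought with blastn 2.17.0. Figures were drawn with matplotlib 3.10.9. Intervals on shares are exact binomial (Clopper-Pearson) at 95% and cover counting error only. The depth is not stated, so no depth-based interval for a height was given. Replicates are separate animals per the labels, and with n = 2 and no second group no test was run. The members, gene lists, elements and the rule for named genes were chosen with earlier results of these data known. Named were the 6 highest and 6 lowest open promoters, all without a peak, the 3 largest differences between animals in each direction, the 3 with the most footprints (with ties), and fixed genes. Further members named for a comparison or an extreme were chosen after their values were seen. Alternatives were the smaller peak list, the higher 50% of the peaks, other windows, starts, joining distances and overlaps, summed heights, either animal alone, another motif window and, chosen after the data were seen, start codons, members without copies and differences between animals against promoters of like height.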

Additional observations from a re-analysis of the deposited data

How the results depend on the processing

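Of 120 alternative values of the main results, 104 stayed within the limit set for them (the 95% interval of a share, 1 SD between animals for a height or ratio, 1.5 times for a count, 0.1 for a log2 difference). The share of open histone promoters ranged from 81.5% to 92.7%. H4 promoters had the higher median in all 13 alternatives run, with ratios from 2.54 to 3.50; the ratio was 2.54 with summed heights and 3.50 without members with a copy, where the median height of histone promoters was 4.73. The ratio of single to paired medians was 1.26 with the smaller peak list, 1.25 with the higher 50% of the peaks, 1.11 with any transcript start, 1.03 with summed heights and 1.05 with start codons. The ratio of the chromosome 3 medians to block C was 1.20 with the smaller list, 1.23 with the higher 50%, 1.40 with a window of 1000 bp, 1.43 with any transcript start and 1.41 with start codons. Against promoters of like height, 1 histone promoter in place of 4 was over 2-fold higher in replicate 2. With the smaller list 13 members lacked a promoter peak in place of 8. The regulator list reached 100% with any transcript start. With an overlap of 50 bp no promoter kept a footprint (0%), since 0.0992% and 0.0976% of footprints are that long. Without replicate 1 or 2, the ratio of H4 to other medians was 2.65 to 3.08, and the median height 2.61 to 3.37. No paired analysis was possible because all samples belong to a single group. Depth is unknown, so low peaks and absent peaks cannot be given a detection limit.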

Other observations

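Peaks away from promoters were counted in the histone clusters. In block C on chromosome 13, which spans 403 kb, 23 peaks in replicate 1 and 25 in replicate 2 touched no protein-coding promoter window, or 0.57 and 0.62 per 10 kb, with median heights of 1.01 and 0.67. Block A, which spans 118 kb, held 5 and 4 such peaks, or 0.43 and 0.34 per 10 kb, with median heights of 0.76 and 1.18. The cluster on chromosome 3 held 6 and 2, or 1.20 and 0.40 per 10 kb, and block B and the chromosome 11 cluster held none in either animal. The highest such peak in block C reached 8.39 and 4.45, above most histone promoters of the block.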
